A study of Homo sapiens with 18 samples.

Results

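The baseline transcriptome of empty vector neuroblastoma cells was described from 3 RNA sequencing libraries, which were chosen by their labels as replicates 1 to 3 of the empty vector line in the first experiment, out of 18 libraries in the series. All cells were BE(2)-m17 (ATCC CRL-2267), an established human neuroblastoma cell line, and carried 2 Sleeping Beauty transposon vectors. The first, pSBbi-Hyg-APP, holds a codon-optimized amyloid precursor protein (APP) gene and hygromycin resistance, and the second, pSBbi-Pur, is the empty vector with puromycin resistance. The cells were antibiotic-selected pools that were plated at 14000000 per well without antibiotic, and RNA was taken on day 4, with a new plating for each replicate. They are therefore a selected, APP-overexpressing derivative and not the parental line, and no untreated parental library was used here.

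Neuroblastoma arises from the sympathoadrenal branch of the neural crest, the cells that also form sympathetic neurons and adrenal chromaffin cells. In that lineage a small circuit of transcription factors, with PHOX2A, HAND2 and GATA3 among them, keeps genes for catecholamine synthesis and for secretory granules active. Chromaffin cells pack catecholamines with acidic granins and peptides into dense core granules, and release them when acetylcholine opens nicotinic receptors. Neuroblastoma cells with this programme are called adrenergic, and a second state, called mesenchymal, is marked by vimentin, PRRX1 and YAP1.

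The counts summed to 43680059, 27331531 and 31545030 read pairs over 57905 Ensembl gene rows in replicates 1, 2 and 3. Each level below is in FPKM, the read pairs counted on a gene per kilobase of its merged exons and per 1000000 pairs on all Ensembl rows, and is a mean ± SD over 3 libraries unless a single library is named. A gene of 2 kilobases with 3 counts would have 0.0343, 0.0549 and 0.0476 FPKM in the 3 libraries, and 3 counts were taken as the amount that a count of 0 still allows, for counting error only. No line was compared with another, so no test was run and every value is a level. In protein-coding genes between 10 and 100 FPKM the median coefficient of variation over the libraries was 2.87%, against 1.80% for counting error alone. Differences between 2 genes of a few percent are therefore within the spread of the replicates.

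A level of at least 1 FPKM on average was reached by 10631 of 19263 protein-coding genes (55.2%), at least 10 FPKM by 4884 (25.4%) and at least 100 FPKM by 293 (1.52%). Another 2631 (13.7%) had no count in any of the 3 libraries. These shares are the background for every list described here. The 100 most abundant genes took up 13.4% ± 0.0493 of all counts and the 1000 most abundant 41.1% ± 0.0429. Transcripts of the mitochondrial chromosome held 2.32% ± 0.111, and cytosolic ribosomal protein genes 5.29% ± 0.0377.

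The 4 marker genes given for these cells were all abundant. MYCN, the transcription factor whose amplification marks aggressive neuroblastoma, lies at chr2:16080686-16087129 on the plus strand on GRCh37, the build of every gene position below, and stood at 1136, 1138 and 1047 FPKM in replicates 1, 2 and 3. Its mean of 1107 FPKM ± 52.2 (SD, n = 3) placed it at rank 15 among protein-coding genes. HAND2, a basic helix-loop-helix factor of sympathetic neurons at chr4:174446120-174451380 on the minus strand, had 258, 218 and 223 FPKM, which is rank 96. GATA3, a zinc finger factor needed for sympathoadrenal development at chr10:8095567-8117161 on the plus strand, had 176, 163 and 163 FPKM, which is rank 146. DBH, the enzyme that turns dopamine into noradrenaline, lies at chr9:136501482-136524466 on the plus strand. It had 141, 136 and 137 FPKM, which is rank 190. All 4 were thus among the 200 highest protein-coding genes in the pooled ranking, and each was present in every library. Of the exon bases of HAND2 21.4% overlap the exons of another gene, and pairs in such bases were not counted.

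Among genes of at least 300 exon bases, the 30 with the highest mean level held 11 genes of the mitochondrial chromosome, led by MT-CO3, a subunit of cytochrome c oxidase, at 2748 FPKM ± 145. The highest nuclear gene was CHGA, which encodes chromogranin A, the main acidic protein of dense core granules. CHGA lies at chr14:93389425-93401638 on the plus strand and had 2378, 2159 and 2198 FPKM, a mean of 2245 FPKM ± 116 (SD, n = 3). EEF2, the elongation factor that moves the ribosome along the mRNA, followed among nuclear genes with 1802 FPKM ± 47.5, and MYCN stood above TMSB10, an actin-binding peptide at 1068 FPKM, FTL, the ferritin light chain at 967 FPKM, and GAPDH at 834 FPKM. Ribosomal protein genes filled 8 further places, with RPS6 at 1229 FPKM and RPL41 at 583 FPKM among them. Other places went to SCG2, a granin, at 674 FPKM ± 18.7, GAL, the precursor of the peptide galanin, at 631 FPKM ± 79.2, EEF1A2 at 585 FPKM and MAT2A, which makes S-adenosylmethionine, at 508 FPKM.

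The order within the 30 is coarse. Of the 29 pairs of neighbours in it, 23 had ranges that overlapped over the libraries and 6 did not. GAL, for example, had 722, 585 and 585 FPKM, so replicate 1 stood above the others by more than the gap between GAL and its neighbours. CHGA was at rank 5 among all protein-coding genes, and every value of it was above every value of EEF2.

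**Figure D1:**
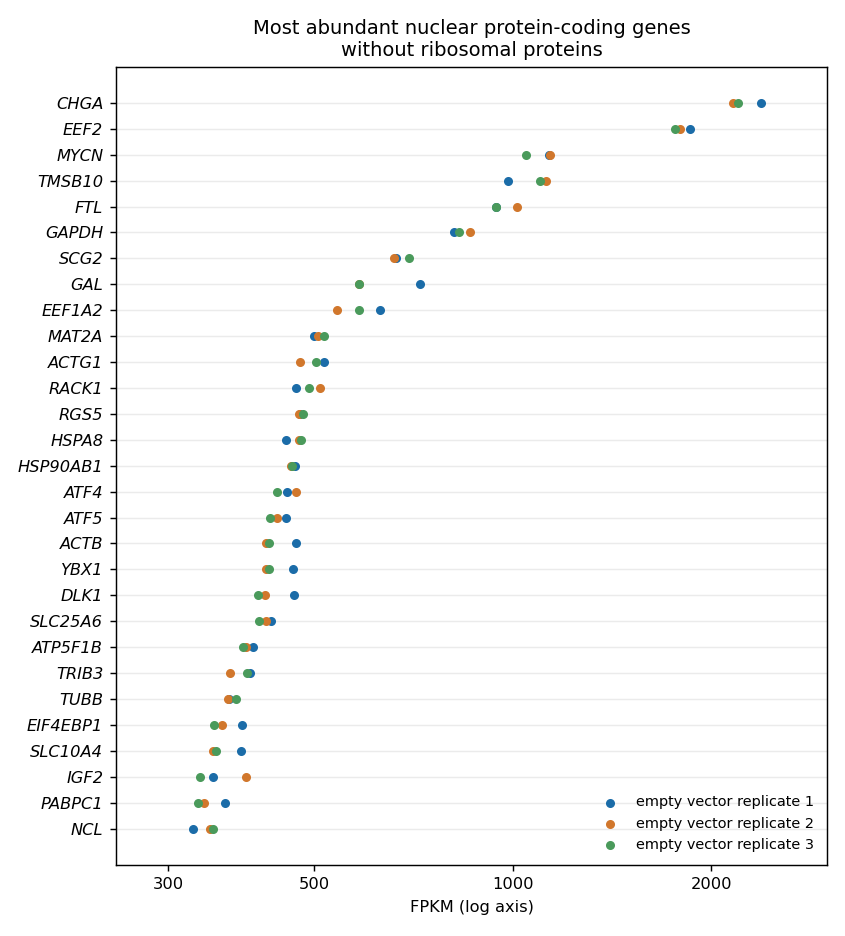
Levels of 29 of the 30 most abundant nuclear protein-coding genes other than ribosomal protein genes, in FPKM on a log axis that starts at 250, with 1 point per empty vector library. CHGA leads at 2378, 2159 and 2198 FPKM, and from MAT2A down the ranges of neighbours overlap, except those of SLC25A6 and ATP5F1B.

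Below the first 30, the nuclear genes at high level included further genes of neuroendocrine and developmental type. RGS5, a regulator of G protein signalling, stood at 477 FPKM ± 3.00, DLK1, a Delta-like membrane protein of chromaffin precursors, at 433 FPKM ± 29.6, IGF2, the fetal growth factor, at 360.0 FPKM ± 30.04, and INSM2, a zinc finger factor of neuroendocrine cells, at 309.7 FPKM ± 12. SLC10A4, a transporter-like protein of aminergic synaptic vesicles, had 364 FPKM ± 19.7. These genes, other than DLK1, were named after their values were seen, and for SLC10A4 the 3 libraries gave 387, 351 and 355 FPKM.

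The genes of neuroendocrine granules included the most abundant nuclear gene of all. Of 30 members, 20 were at 1 FPKM or more and 18 at 10 or more, with a list median of 24.8 FPKM against 1.93 over all protein-coding genes. The granins formed a graded series: CHGA, SCG2 and CHGB stood at 2245, 674 and 309.8 FPKM ± 6.61, VGF at 247 FPKM ± 36.3 and SCG3 at 98.02 FPKM ± 4.95. Between CHGA and CHGB the ratio within a library was 7.25 ± 0.433. Replicate 1 was highest for VGF, with 289, 228 and 224 FPKM.

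Peptide genes differed widely in level. GAL was followed by NPY, neuropeptide Y, at 34.8 FPKM ± 0.561, and by VIP at 20.01 FPKM ± 1.77, while ADCYAP1 had 3.73 FPKM. SST, somatostatin, had 16, 10 and 8 counts, CARTPT had 24, 14 and 29 counts, PENK had 0.0876 FPKM, and no pair was counted for POMC or PDYN. Within each library GAL exceeded NPY by 20.7, 17.1 and 16.6 times. Of the convertases that cut prohormones, PCSK1 stood at 31.3 FPKM ± 0.832 and PCSK2 at 0.0790 FPKM ± 0.0192, and their ratio within a library lay between 336 and 562. CPE, which trims the cut peptides, had 80.2 FPKM ± 0.434, and PAM, which amidates them, had 13.1 FPKM ± 0.290.

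Since the most abundant nuclear gene, CHGA, is a granule gene, the 250 bases before the RefSeq start sites of granule genes were searched for 2 motifs. These were the cyclic AMP response element, TGACGTCA, which reads alike on both strands, and TATAAA on either strand. The element was present in 2.37% of 14988 protein-coding promoters that matched by symbol. It was found in 5 of the 24 granule genes with a promoter entry (20.8%), namely CHGA, VGF, PCSK1, SST and CARTPT, and in 1 of 10 genes of catecholamine synthesis and transport, SLC18A2. None of 12 matched adrenergic regulators held it. The granule genes SCG2, GAL, CHGB, SNAP25, PENK and CALCB had no promoter entry, so their promoters were not searched. The search was chosen after the levels were seen. The sequences of 5 promoters with the element, 3 of them of genes above 30 FPKM, and of DBH, which has neither motif, are shown 5′ to 3′ on the gene's strand from RefSeq on GRCh38.p14, with the 2 motifs in capitals.
CHGA, chr14:92922900-92923149, plus strand: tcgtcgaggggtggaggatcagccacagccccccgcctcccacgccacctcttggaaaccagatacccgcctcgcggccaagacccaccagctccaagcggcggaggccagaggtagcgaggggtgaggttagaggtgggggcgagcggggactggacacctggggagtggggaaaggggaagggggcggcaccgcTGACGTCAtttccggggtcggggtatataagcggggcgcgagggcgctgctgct
VGF, chr7:101165570-101165819, minus strand: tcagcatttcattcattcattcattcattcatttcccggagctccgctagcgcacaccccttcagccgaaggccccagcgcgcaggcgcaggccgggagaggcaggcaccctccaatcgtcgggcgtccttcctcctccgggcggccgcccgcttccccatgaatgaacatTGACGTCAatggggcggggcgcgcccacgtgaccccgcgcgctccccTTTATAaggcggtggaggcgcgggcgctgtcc
PCSK1, chr5:96433249-96433498, minus strand: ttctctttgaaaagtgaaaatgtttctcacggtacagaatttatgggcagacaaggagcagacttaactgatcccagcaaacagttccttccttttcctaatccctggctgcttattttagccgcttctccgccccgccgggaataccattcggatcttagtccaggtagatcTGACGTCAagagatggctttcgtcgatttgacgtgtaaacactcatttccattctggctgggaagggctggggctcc
SLC18A2, chr10:117240864-117241113, plus strand: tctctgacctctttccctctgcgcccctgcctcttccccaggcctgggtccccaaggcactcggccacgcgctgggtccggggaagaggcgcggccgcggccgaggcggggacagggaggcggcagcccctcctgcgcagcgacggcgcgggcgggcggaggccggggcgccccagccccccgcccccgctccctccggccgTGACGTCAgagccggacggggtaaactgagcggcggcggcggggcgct
SST, chr3:187670395-187670644, minus strand: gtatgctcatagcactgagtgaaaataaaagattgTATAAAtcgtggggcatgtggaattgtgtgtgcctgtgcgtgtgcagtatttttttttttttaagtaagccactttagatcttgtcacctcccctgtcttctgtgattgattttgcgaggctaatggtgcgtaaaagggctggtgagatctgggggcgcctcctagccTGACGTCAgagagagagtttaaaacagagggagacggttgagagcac
DBH, chr9:133636113-133636362, plus strand: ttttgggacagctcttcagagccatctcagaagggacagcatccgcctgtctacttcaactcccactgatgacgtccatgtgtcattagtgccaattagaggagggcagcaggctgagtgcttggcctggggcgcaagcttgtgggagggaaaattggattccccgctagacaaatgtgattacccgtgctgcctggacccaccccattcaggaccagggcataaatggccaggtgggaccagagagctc

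The element began 54 bases before the start of CHGA, 79 before VGF, 77 before PCSK1, 48 before SLC18A2 and 47 before SST. The genes that share it spanned the range of levels, from CHGA at 2245 FPKM through PCSK1 at 31.3 FPKM and SLC18A2 at 7.53 FPKM to SST at 0.532 FPKM. VGF also held TATAAA on the opposite strand, which begins 32 bases before its start, and SST held it 215 bases before its start. A match is a description of letters, and binding was not measured.

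Over all matched promoters the share with TGACGTCA was 0.951% in genes with no count, 1.15% in genes counted below 1 FPKM, 3.04% from 1 to 10 FPKM, 3.52% from 10 to 100 FPKM and 4.07% at 100 FPKM or more. TATAAA was present in 22.5% of promoters of genes with no count, in 11.7% of those counted below 1 FPKM, in 4.86% and 4.33% of the next 2 classes and in 12.7% of those at 100 FPKM or more. GGGCGG, read on both strands, was present in 23.4% of promoters with no count and in 47.0% of those counted below 1 FPKM. Its share was 68.5% from 1 to 10 FPKM, 70.2% from 10 to 100 FPKM and 70.1% at 100 FPKM or more. CACGTG, the letters of the canonical MYC and MAX site, was present in 4.98% of promoters with no count and in 5.66% of those counted below 1 FPKM. Its share was 9.21% from 1 to 10 FPKM, 9.89% from 10 to 100 FPKM and 9.50% at 100 FPKM or more.

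The adrenergic regulators were nearly all present. Of 21 genes, 20 were at 1 FPKM or more (95.2%, against 55.2% of protein-coding genes) and 17 at 10 or more. PHOX2A, a homeobox factor that sets noradrenergic identity, had 257, 241 and 228 FPKM, a mean of 242 FPKM ± 14.6. GATA2, HAND1, TWIST1, TFAP2B and ISL1 had 90.1, 79.9, 66.6, 55.8 and 41.5 FPKM.

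Related regulators were unequal to differing degrees within a library. HAND2 exceeded HAND1 by 2.92 ± 0.130 times, and GATA3 exceeded GATA2 by 1.86 ± 0.0309 times. INSM2 exceeded INSM1 by 81.2 ± 3.59 times, and these related pairs were named after their values were seen.

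MYC family members were also unequal. MYC had 0.489, 0.599 and 0.497 FPKM against more than 1000 FPKM for MYCN, so the ratio of MYCN to MYC within a library was 2109 ± 211. MAX, the partner that MYC proteins need to bind DNA, had 22.9 FPKM ± 0.529, and MYCL had 1.77 FPKM. MYCNOS, an antisense RNA that overlaps MYCN, was listed at 55.8 FPKM ± 6.14. Of its exon bases 5.18% overlap another gene, and pairs there were left out of both counts. The counting did not use strand, so the strand of the pairs on the other bases is unknown. DNA copy number was not measured.

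**Figure D2:**
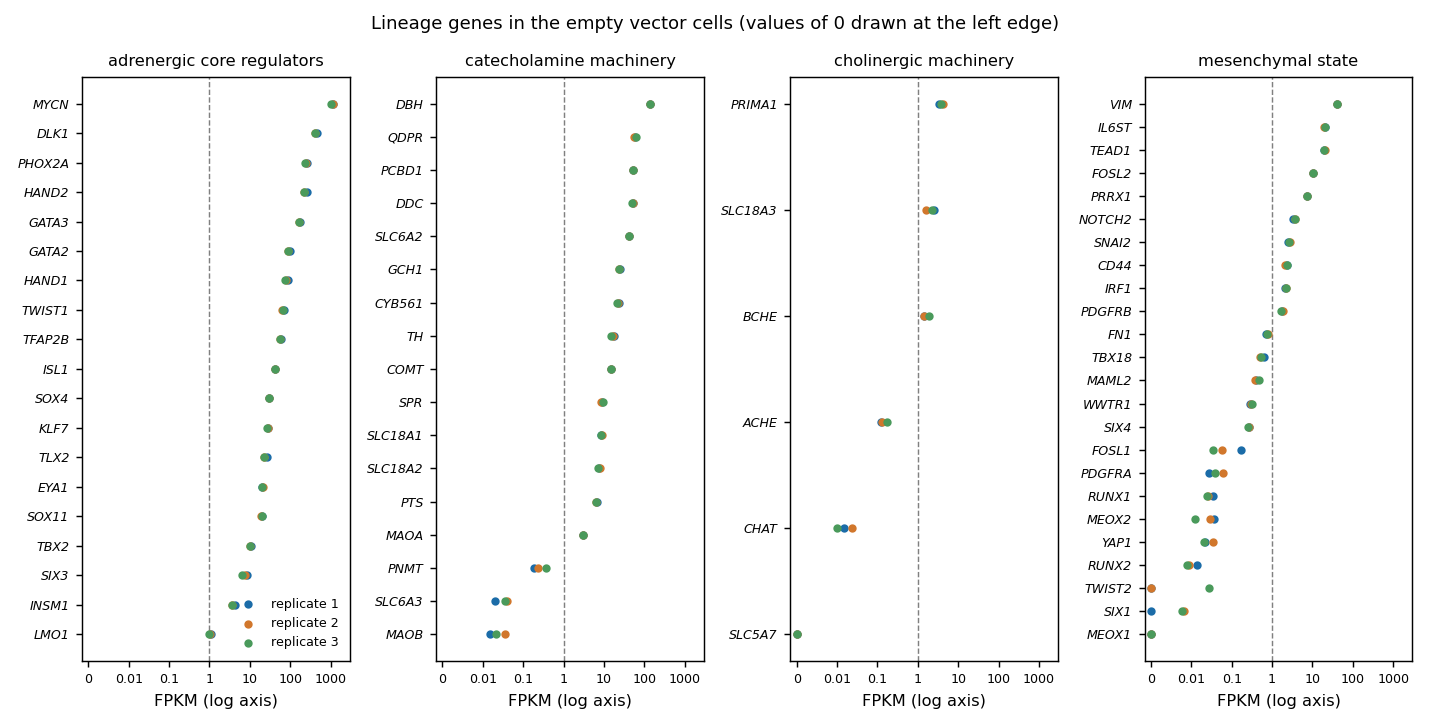
Levels of 19 of the 21 adrenergic regulators and of catecholamine, cholinergic and mesenchymal genes in FPKM on a log axis, with 1 point per empty vector library, a dashed line at 1 FPKM and values of 0 drawn at the left edge. The adrenergic regulators drawn have their means right of the line, while 14 of 24 mesenchymal genes have theirs left of it.

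Genes of catecholamine synthesis, storage and uptake were present as far as noradrenaline. Of 17 members, 14 were at 1 FPKM or more. TH, tyrosine hydroxylase, which makes L-DOPA, had 16.6 FPKM ± 1.28, DDC, which decarboxylates it to dopamine, 50.9 FPKM ± 0.808, and DBH 138 FPKM ± 2.61. PNMT, which turns noradrenaline into adrenaline, had 12, 9 and 17 counts, or 0.261 FPKM ± 0.0957. DBH exceeded TH by 8.33 ± 0.589 times within a library, and TH was the lowest of the 3 synthetic enzymes in every library.

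Genes of tetrahydrobiopterin, the cofactor of TH, were also present. GCH1, PTS and SPR, which make it, had 24.1, 6.46 and 8.95 FPKM, and QDPR and PCBD1, which recycle it, 58.8 and 51.7 FPKM. Both vesicular monoamine transporters were present, SLC18A1 at 8.65 FPKM ± 0.177 and SLC18A2 at 7.53 FPKM ± 0.413, a ratio of 1.15 ± 0.0429. SLC6A2, the noradrenaline transporter, had 41.5 FPKM ± 0.284, while SLC6A3, the dopamine transporter, had 4, 5 and 5 counts. Of the monoamine oxidases, MAOA had 3.04 FPKM ± 0.0563 and MAOB 2, 3 and 2 counts.

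Other transmitter systems were lower. Of 6 cholinergic genes 3 were at 1 FPKM or more, led by PRIMA1, which anchors acetylcholinesterase, at 3.78 FPKM ± 0.360. CHAT, which makes acetylcholine, had 2, 2 and 1 counts, and SLC5A7, the choline transporter, had none, although SLC18A3, the vesicular acetylcholine transporter, had 2.14 FPKM ± 0.488. Of 12 genes of glutamate, GABA, glycine, serotonin and histamine transmission none reached 1 FPKM, and the highest had 0.316 FPKM. Among 9 regulators of midbrain dopamine neurons NR4A2 alone passed 1 FPKM, at 2.43 FPKM, and FOXA1, FOXA2 and EN1 had no count.

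Structural genes of neurons were broadly abundant, with 23 of 25 at 1 FPKM or more and a list median of 52.3 FPKM. UCHL1, a neuronal ubiquitin hydrolase, had 229 FPKM ± 5.33, INA, an intermediate filament protein, 201 FPKM ± 3.99, and STMN2, a regulator of microtubules in growing axons, 146 FPKM ± 1.81. DCX, of migrating neurons, had 36.3 FPKM. RBFOX3, which encodes the mature neuron antigen NeuN, was at 0.132 FPKM and STMN4 at 0.485 FPKM. TUBB3, the neuronal beta tubulin, was listed at 1.48 FPKM ± 0.0840, but 25.8% of its exon bases overlap other annotated genes, and both genes that overlap its span had no count. Pairs in shared bases were not counted, so its level, like those of NEFM and PRPH with 38.98% and 56.2% of shared bases, is uncertain.

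Mesenchymal genes were mixed. Of 24 members, 10 were at 1 FPKM or more (41.7%), and the list median was 0.490 FPKM. VIM, vimentin, stood at 40.4 FPKM ± 0.752, TEAD1 at 19.8 FPKM, FOSL2 at 10.2 FPKM and PRRX1 at 7.34 FPKM ± 0.0461. YAP1, the partner of TEAD1 in Hippo signalling, had 6, 6 and 4 counts, FN1 had 0.750 FPKM ± 0.0607, and MEOX1 had none. Because these are bulk libraries, a few cells with a high level and all cells with a low level cannot be told apart.

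Marker genes of other cell types were mostly low. Of 64 markers of Schwann, fibroblast, endothelial, immune, epithelial, astrocyte, oligodendrocyte and adrenal cortex cells, 8 (12.5%) were at 1 FPKM or more and 15 had no count. None of the Schwann, endothelial, immune or adrenal cortex markers passed 1 FPKM. SOX10, a marker on both the Schwann and the oligodendrocyte list, had 1 count in 1 library. Fibroblast markers held the highest values, with 4 of 9 at 1 FPKM or more, as LUM, lumican, had 27.5 FPKM ± 0.434, THY1 25.2 FPKM ± 0.451, DCN, decorin, 4.74 FPKM and PDGFRB 1.80 FPKM. The other 5 were below 1 FPKM, among them the collagen genes, with COL3A1 at 0.126 FPKM ± 0.00832, COL1A1 at 0.0785 FPKM ± 0.0127 and COL1A2 at 0.00109 FPKM.

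Among receptors, 128 of 351 listed genes (36.5%) were at 1 FPKM or more, 39 at 10 or more and 31 had no count. The share is below the 55.2% of all protein-coding genes, and it varied from 0 of 8 metabotropic glutamate receptors to 10 of 14 co-receptors of neurotrophic factors.

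RET, the receptor tyrosine kinase for ligands of the glial cell line-derived neurotrophic factor (GDNF) family, led all receptors. RET lies at chr10:43572475-43625799 on the plus strand and had 163, 162 and 159 FPKM. Its co-receptors, which bind the ligand, were led by GFRA2 at 31.9 FPKM ± 1.39, then GFRA3 at 6.65 FPKM ± 0.463, while GFRA1, which binds GDNF itself, had 0.620 FPKM ± 0.0466 and GFRAL had none. Every value of GFRA2 lay above every value of GFRA3, and every value of GFRA3 above those of GFRA1.

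ALK, a kinase mutated in some neuroblastomas, stood at 4.66 FPKM ± 0.260, so RET exceeded it by 34.7 ± 1.51 times within a library. DDR2, a collagen receptor, had 51.99 FPKM ± 1.58 and IGF1R, which binds the abundant IGF2, 23.4 FPKM ± 0.445. Of the neurotrophin receptors, NTRK2 had 0.447 FPKM ± 0.0399, NTRK3 0.0772 FPKM ± 0.00948 and NGFR 1.83 FPKM ± 0.107. In all, 26 of 58 receptor tyrosine kinases were at 1 FPKM or more, and TEK and STYK1 had no count.

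Receptors for acetylcholine were those of autonomic ganglia. CHRNA3 had 137, 136 and 136 FPKM, the second highest receptor level. CHRNB4 and CHRNA5, which lie beside CHRNA3 on chromosome 15 and join with it in the ganglionic receptor, had 30.4 FPKM ± 0.538 and 9.42 FPKM ± 0.310, and CHRNB2 had 36.7 FPKM ± 0.742. CHRNA7, of the homomeric receptor, had 2.60 FPKM ± 0.144, and CHRNA3 exceeded it by 52.6 ± 2.89 times. The other 11 nicotinic subunit genes were counted below 1 FPKM. Of the muscarinic receptors, CHRM1 and CHRM3 had 3.74 and 3.30 FPKM, and the other 3 were below 1 FPKM.

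Receptors for catecholamines were mainly of the inhibitory kind. ADRA2C, an alpha-2 adrenergic autoreceptor, had 38.7 FPKM ± 1.62 and ADRA2A 4.34 FPKM ± 0.325, ADRA1B had 3.40 FPKM, and ADRB1 and ADRB3 had no count. DRD2, the inhibitory dopamine receptor, had 21.4 FPKM ± 0.842, DRD5 had 1.01 FPKM, and DRD1 and DRD3 had no count.

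Serotonin and peptide receptor genes were mostly low. HTR1E, at 15.7 FPKM ± 0.394, was the only one of 17 serotonin receptor genes at 1 FPKM or more, and 5 others had no count. NPY2R, a presynaptic receptor of neuropeptide Y, had 57.2 FPKM ± 1.79, and 8 of 50 peptide receptor genes were at 1 FPKM or more. The next of them, the opioid receptor gene OPRD1, had 7.93 FPKM ± 0.291, and NPY1R had 2 counts in 1 library. Of 18 ionotropic glutamate receptor genes 7 were at 1 FPKM or more, led by GRIA4 at 13.7 FPKM ± 0.460, GRIK2 at 10.4 FPKM and GRIK3 at 9.75 FPKM. Of 18 purine receptor genes 6 were at 1 FPKM or more and none reached 10 FPKM.

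Of 47 nuclear receptor genes 27 (57.4%) were at 1 FPKM or more, near the 55.2% of all protein-coding genes, with NR2F6 at 21.9 FPKM ± 1.72, RXRB at 14.04 FPKM and RARA, which binds retinoic acid, at 12.1 FPKM. PGR, the progesterone receptor gene, had no count over 15305 exon bases. Of 31 cytokine and death receptor genes 9 were at 1 FPKM or more, led by IFNGR1 at 31.6 FPKM ± 1.48, and CXCR4 had 9.18 FPKM. Of 31 receptors for Notch, Wnt, BMP and TGF-beta signals 18 (58.1%) were at 1 FPKM or more, from LRP5 at 19.4 FPKM down, whereas NOTCH1 was at 0.143 FPKM and NOTCH2 at 3.57 FPKM.

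**Figure D3:**
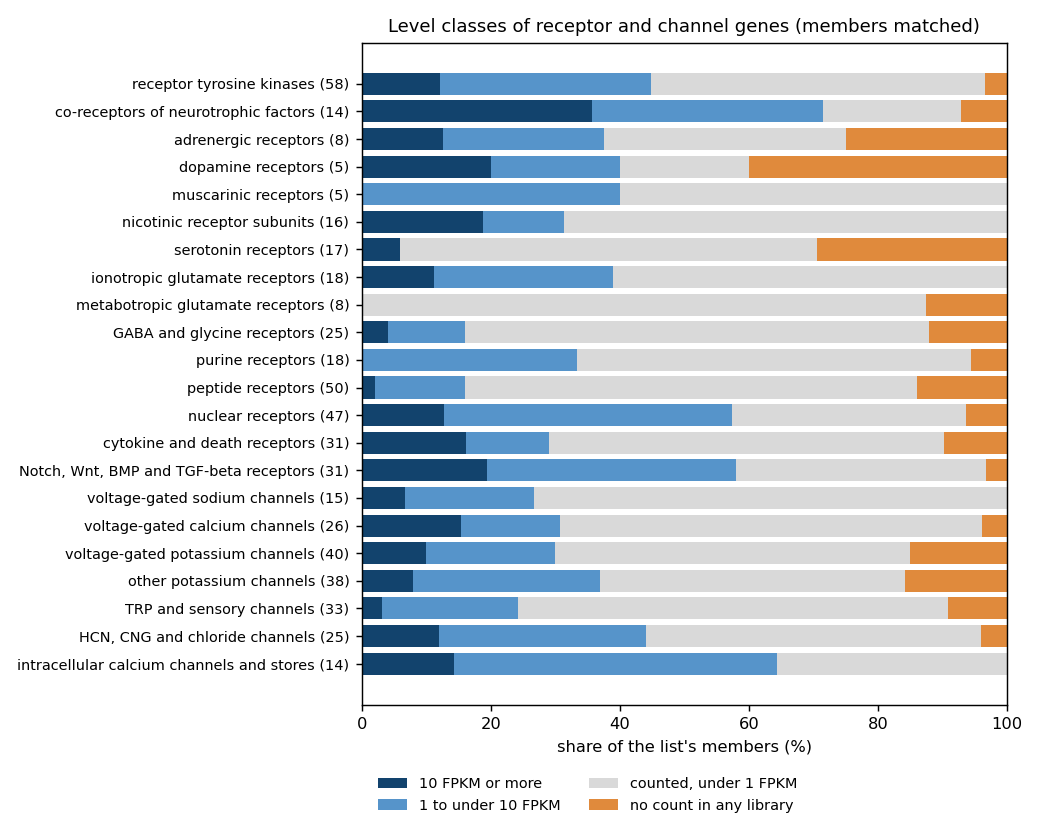
Share of the matched members of each receptor and channel list, in percent, at 10 FPKM or more, at 1 to under 10 FPKM, counted below 1 FPKM and with no count in the 3 libraries, with the number of members in brackets. Co-receptors of neurotrophic factors have the largest share at 10 FPKM or more, 5 of 14, and dopamine receptors the largest share with no count, 2 of 5.

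Of 191 genes of ion channels and calcium stores, 66 (34.6%) were at 1 FPKM or more, 18 at 10 or more and 17 had no count. No channel gene reached 100 FPKM, and in the sodium and calcium channel lists an auxiliary subunit was more abundant than any pore-forming one.

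Among sodium channel genes, SCN3B, an auxiliary beta subunit, had 36.1, 37.01 and 36.6 FPKM. The pore-forming members were SCN9A at 5.70 FPKM ± 0.196, SCN8A at 3.61 FPKM ± 0.197 and SCN3A at 1.14 FPKM ± 0.0695, and the other 11 genes were counted below 1 FPKM. Each value of SCN9A was above each value of SCN8A.

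Calcium channel genes were led by CACNG4, a member of the gamma subunit family that also escorts AMPA receptors, at 67.3 FPKM ± 3.49, and by the auxiliary genes CACNA2D1 at 46.8 FPKM ± 0.677 and CACNA2D2 at 16.3 FPKM. Of the pore-forming genes, CACNA1B, of the N-type channel that gates transmitter release, had 14.6, 14.8 and 13.98 FPKM, and CACNA1H, of a T-type channel, 6.52 FPKM ± 0.222. CACNA1A, of the P/Q-type channel, had 6, 4 and 4 counts, and CACNA1C, of the L-type channel, 0.0687 FPKM ± 0.0163.

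Potassium channel genes were led by KCNG1, an electrically silent modifier subunit, at 56.5 FPKM ± 2.85. KCNQ5, of the M-current that acetylcholine suppresses, had 19.1 FPKM ± 0.204, and KCNH2, of the hERG channel, 32.1 FPKM ± 1.42. No KCNA gene of the list reached 1 FPKM, and KCNA1, KCNA5, KCNA7 and KCNA10 had no count. Beyond the voltage-gated genes, KCNJ8, a pore of the ATP-sensitive channel, had 34.1 FPKM ± 1.19, its relative KCNJ11 1.22 FPKM, and the acid-sensitive leak channel KCNK3 27.6 FPKM ± 1.60.

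Of the chloride and cyclic nucleotide gated genes, CLIC4, CLIC1 and CLCN3 were above 30 FPKM, at 59.1, 52.8 and 38.8 FPKM. HCN3 and HCN2, of the pacemaker current, had 6.31 and 5.88 FPKM. For calcium stores, the pump ATP2A2 had 38.5 FPKM ± 0.262 and the release channel ITPR1 30.9 FPKM ± 1.08, followed by ITPR2 at 6.82 FPKM. The ryanodine receptors RYR1 and RYR2 were at 1.52 and 1.03 FPKM.

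**Figure D4:**
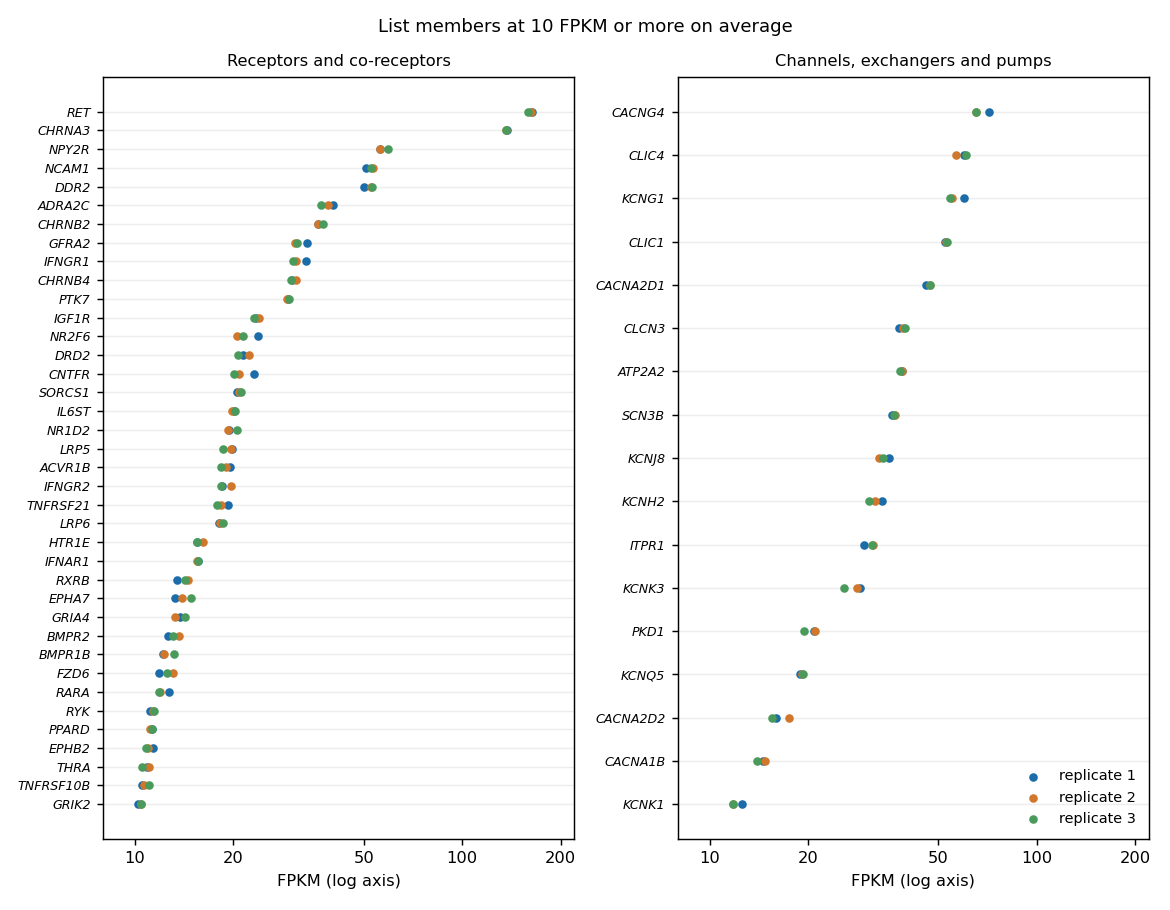
Receptor and co-receptor genes (38 of 39) and channel and calcium store genes (17 of 18) with a mean of 10 FPKM or more, in FPKM on a log axis, with 1 point per empty vector library. RET and CHRNA3 stand alone above 100 FPKM, and CACNG4 and CLIC4 lead the channels.

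Of 69 genes related to the study's question, 39 (56.5%) were at 1 FPKM or more, and their median was 1.11 FPKM against 1.93 over all protein-coding genes. Endogenous APP, at chr21:27252861-27543446 on the minus strand, had 35.6, 34.1 and 35.5 FPKM, and its relatives APLP2 and APLP1 had 42.4 and 29.2 FPKM. The codon-optimized APP of the vector, counted apart from the gene, had 113, 114 and 117 FPKM on the same scale, or 3.28 ± 0.0897 times the level of endogenous APP. Most of that ratio comes from the lengths used, 2313 bases for the vector row against 6349 merged exon bases for the gene. In read pairs the vector row had 11437, 7223 and 8545 counts and the gene 9875, 5910 and 7110 counts. The beta-secretase gene BACE1 had 18.4 FPKM ± 0.106 and BACE2 1, 3 and 1 counts. Of the gamma-secretase subunits, NCSTN stood at 44.5 FPKM, APH1A at 50.2 FPKM, PSEN2 at 12.8 FPKM ± 0.170 and PSENEN at 7.60 FPKM, of whose exon bases 46.2% are shared with another gene. The alpha-secretase genes ADAM10 and ADAM17 had 10.4 and 10.1 FPKM.

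ABCC1, the exporter that the other line of the study overexpresses, was already transcribed here, at chr16:16043434-16236931 on the plus strand, with 20.3, 19.8 and 19.9 FPKM. ABCC4 was close to it at 21.7 FPKM ± 0.561, ABCC5 had 8.78 FPKM and ABCC10 4.38 FPKM, and the other 8 of 12 ABCC genes were counted below 1 FPKM. Of the other exporters known from drug resistance, ABCB1 had 1.01 FPKM ± 0.125 and ABCG2 0.0289 FPKM. ABCA3, a lipid transporter, had 40.4 FPKM ± 0.295 and ABCG1, which exports cholesterol, 14.7 FPKM ± 0.774. TIMP1, TIMP2 and TIMP3, inhibitors of metalloproteinases, had 22.6, 11.6 and 6.34 FPKM, and CD38 had 0.126 FPKM ± 0.0239.

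All 14 proliferation genes were at 1 FPKM or more, with PCNA, the replication clamp, at 191 FPKM ± 12.3 and MKI67 at 108 FPKM ± 3.75. CCND1, the cyclin of the G1 phase, had 162 FPKM ± 11.4 and its kinases CDK6 and CDK4 111 and 52.2 FPKM, with 43.2% of the exon bases of CDK4 shared with another gene. ODC1, which starts polyamine synthesis and is a known target of MYC proteins, had 129 FPKM ± 3.96. LIN28B, which blocks let-7 microRNAs, had 13.5 FPKM ± 0.342 and its relative LIN28A 1 count in 1 library. CASP8, the initiator caspase of death receptors, had 0.355 FPKM ± 0.0385, and CASP10 0.0666 FPKM.

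Antigen presentation genes were present in part. B2M, the light chain of class I molecules, had 97.5 FPKM ± 2.76, while HLA-C and HLA-B had 8.82 and 2.11 FPKM. TAP1, of the peptide transporter, had 1 count in 1 library and PSMB9, of the immunoproteasome, 0.00344 FPKM. HLA genes are alike in sequence and vary between genomes, so their relative levels are uncertain under counting that leaves out multi-mapping pairs.

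All 19 glycolytic genes were at 1 FPKM or more, but the lactate dehydrogenase genes were far apart. LDHB had 264, 292 and 286 FPKM and LDHA 2.41, 2.37 and 2.57 FPKM, a ratio of 115 ± 7.42. The 6 processed pseudogenes of LDHA together held 3.66% of the counts of LDHA, so few counted pairs lay there, although pairs that mapped to several places are in neither count. A like inequality of smaller size was seen between elongation factor genes, where EEF1A2 exceeded EEF1A1 by 4.21 ± 0.403 times. EEF1A1 has 48 pseudogene rows with 2.62% of its counts, and pairs shared with them were not counted. Both pairs were named after their values were seen.

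Of all 57905 Ensembl rows, 26091 (45.1%) had no count in any library, while 22599 were counted in all 3, 3721 in 2 and 5494 in 1. Rows counted in 1 library held at most 8 counts. The protein-coding genes with no count were short, with a median of 1590 exon bases against 4513 in the genes that were counted. In 435 of the 2631 (16.5%) at least 50% of the exon bases are shared with another gene, against 2.45% of counted genes, and pairs in shared bases were not counted. A count of 0 in those genes is therefore a weak measure of transcription.

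In some families with a narrow tissue range most genes had no count. Of 356 olfactory receptor genes, 320 had no count and none reached 1 FPKM, and the whole family pooled had 0.00490, 0.00548 and 0.00466 FPKM. In the same way 84 of 92 keratin-associated protein genes, 33 of 39 beta defensin genes, 12 of 13 interferon alpha genes and 10 of 11 GAGE genes had no count, although the beta defensin gene DEFB1 had 3.04 FPKM. At the other extreme stood 509 zinc finger genes with a ZNF symbol, of which 12 had no count and 382 (75.0%) were at 1 FPKM or more, and 51 clustered protocadherin genes, all with a count but 13 at 1 FPKM or more. Pairs that mapped to several places or overlapped several genes were not counted. In families whose genes are alike in sequence or overlap, low levels and counts of 0 are therefore weak measures of transcription.

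Some long genes without a count allow a tight limit. DNAH9, a dynein of motile cilia with 16980 exon bases, FOXP2, a forkhead factor with 15782, and DOCK8, an exchange factor of immune cells with 13782, had none, and 3 counts in them would be at most 0.00646, 0.00695 and 0.00796 FPKM in any of the libraries.

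HOX genes, which record position along the body axis, split by cluster, and they were singled out after their values were seen. Of 11 HOXA genes 9 had no count and of 10 HOXB genes 7, and no member of either passed 0.0280 FPKM. In the HOXC cluster HOXC6, HOXC8 and HOXC9 had 6.01, 7.82 FPKM ± 0.524 and 6.54 FPKM, and the other 6 were below 1 FPKM. In the HOXD cluster 6 of 9 were at 1 FPKM or more. HOXD13, the last gene of the cluster, had 40.8, 37.5 and 37.4 FPKM, followed by HOXD8 at 19.2 FPKM ± 0.113 and HOXD9 at 12.97 FPKM ± 0.591, while HOXD12, its neighbour, had 0.202 FPKM ± 0.0471.

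**Figure D5:**
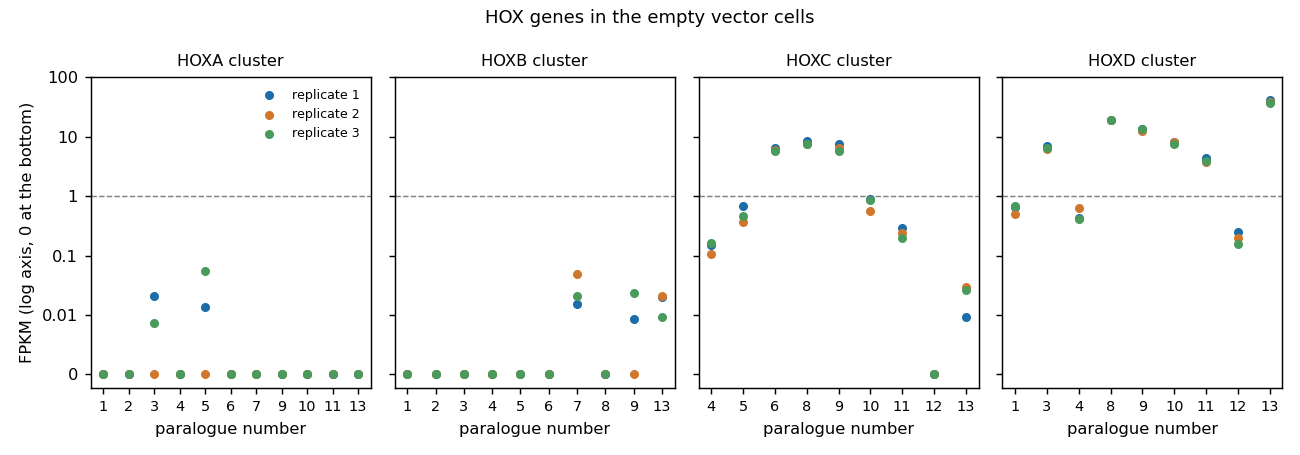
Levels of the HOX genes of the 4 clusters in FPKM on a log axis, against the paralogue number, with 1 point per empty vector library, a dashed line at 1 FPKM and values of 0 at the bottom. HOXA and HOXB genes lie at or near 0, HOXC6, HOXC8 and HOXC9 lie between 5.69 and 8.42 FPKM, and HOXD13 lies highest at 37.4 to 40.8 FPKM.

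The levels varied little from library to library. Of 4884 protein-coding genes at 10 FPKM or more, none differed 2-fold between its highest and lowest library. The 10 rows at 10 FPKM or more with the largest ratio of highest to lowest library included 7 of 215 exon bases or fewer, such as IGHD7-27 with 6, 5 and 1 counts and a ratio of 5.77. The 3 protein-coding genes among them were PCSK1N, an inhibitor of PCSK1, at 48.00, 31.1 and 34.9 FPKM, FTH1, the ferritin heavy chain, at 235, 177 and 165 FPKM, and NDUFB4, of respiratory complex I, at 23.8, 16.99 and 18.98 FPKM. Replicate 1, the deepest library, was the highest in all 3, and also in each of the 10 protein-coding genes at 10 FPKM or more with the largest ratios, which ran from 1.36 to 1.54. The chi-square per degree of freedom between libraries was 4.16 and 4.27 for the pairs that include replicate 1 and 2.11 between replicates 2 and 3, so replicate 1 stood apart from the others. Whether its depth had a part in this was not tested. Of the exon bases of FTH1 62.4% are shared with another gene, so its level is uncertain.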

How the data were processed

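RNA of the 3 empty vector libraries was prepared with the TruSeq RNA Library Prep Kit v2 according to the paper and a sample label, while another label field names a different kit. Per the study's methods and processing notes, reads were aligned with STAR 2.7.3a to GRCh37 with vector and spike-in sequences, and pairs were counted per gene with featureCounts of Subread 2.0.0 on Ensembl release 74 exons. Strand was not used, and pairs that mapped to several places or overlapped several genes were left out. The deposited values are raw counts with exon lengths, and the authors pooled no replicates. Here counts were divided by exon length in kilobases and by the pairs on Ensembl rows in units of 1000000, which gives FPKM, with Python 3.11.15, pandas 2.3.3 and numpy 2.4.6. The merged exons can be longer than the transcript in use, which lowers FPKM. The step was tested on simulated data.

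Symbols matched 52338 of 57905 Ensembl IDs. Gene types were taken from GENCODE release 29. The 5567 rows without a match held 0.780% of counts. The 52 lists held 943 distinct genes after 8 symbols found no row. Members and lists were chosen with earlier results of these data known. Named were the 30 rows of at least 300 exon bases with the highest mean, the 4 markers, for each list up to 8 of its highest members with the number at 1 FPKM or more and those without a count, the 10 rows at 10 FPKM or more with the largest ratio between libraries, and families without counts. Other named genes were chosen after their values were seen, which includes members below the highest 8 and the pairs of related genes. The replicates were separate platings of the selected cells, so the SD covers plating and library preparation. Chi-square statistics per degree of freedom of 4.16, 4.27 and 2.11 for replicates 1 and 2, 1 and 3, and 2 and 3 showed 3 distinct libraries, with replicate 1 the farthest from the others. The alternatives were TPM, edgeR 4.0.16 TMM and RLE scaling, other lengths, thresholds and totals, and leaving out each replicate. The other 15 libraries were not used here, and some genes that the rule names are not reported here.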

Additional observations from a re-analysis of the deposited data

Results flagged for a closer look

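Rows outside the Ensembl genes also held counts in the 3 empty vector libraries. Summed over the libraries, the puromycin resistance gene of the empty vector had 270021 counts, the largest signal outside the genes, and the hygromycin resistance gene of the APP vector had 106996. The 2 differed in spread, as puromycin resistance stood at 4995, 4029 and 3858 FPKM and hygromycin resistance at 1017, 1018 and 1016 FPKM. Codon-optimized APP had 27205 counts. These 3 rows are sequences that the cells were made to carry.

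Codon-optimized ABCC1, which these cells do not carry according to their labels, had 31 counts in all, or 11, 5 and 15 per library (0.0660 FPKM ± 0.0333), above the 3 counts taken as the limit. The rows for EGFP and blasticidin resistance had no count in any library. The 92 spike-in rows together had 12 counts. The source of the ABCC1 and spike-in counts was not tested.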

How the results depend on the processing

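The number of Ensembl rows at 1 FPKM or more was 12079, and ran from 10358 with a threshold of 2 FPKM to 16112 on the TPM scale. The number of list members was 428, and ran from 372 to 544 under the same settings. Both numbers stayed within 1.5 times of these main values under all alternatives run. The share of counts in the 100 most abundant rows, 13.4%, became 12.9% with exon length reduced by 150 bases and 15.3% when rows were ranked by counts, and leaving out 1 replicate gave 13.4 to 13.5%. Rows with no count numbered 5281 instead of 26091 when only rows of at least 1000 exon bases were considered. The median level of 443 genes was 12.1 FPKM, 48.0 on the TPM scale and 12.6 with the reduced length. These genes were the list members at 1 FPKM or more and the 30 most abundant rows of at least 300 exon bases. HAND2, GATA3, MYCN, DBH and CHGA kept their ranks under TPM, TMM, RLE and totals without mitochondrial rows, and moved by 5 places or fewer with the reduced length. No paired analysis was possible because 1 group was described and nothing was compared between groups. Levels below about 0.05 FPKM rest on a few counts, and overlapping or near-identical genes are undercounted by an unknown amount.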

Other observations

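Several genes known as targets of amino acid limitation were high in the empty vector cells. They were singled out for their values, belong to no list and were not tested as a group. ATF4, the transcription factor translated when the integrated stress response is active, had 455, 469.8 and 439.5 FPKM, ATF5 had 440.2 FPKM ± 12.2 and TRIB3, a target of both, 389 FPKM ± 14.3. EIF4EBP1, which restrains translation, stood at 367 FPKM ± 18.2, PSAT1, of serine synthesis, at 267 FPKM ± 6.58, and SLC7A5, an importer of large amino acids, at 224 FPKM ± 11.2. CHAC1, which degrades glutathione, had 91.6 FPKM ± 1.44. ASNS, asparagine synthetase, which is controlled by ATF4 in many cells, had 22.9 FPKM ± 0.155. Other genes of this kind were lower, as PHGDH and PSPH, of serine synthesis, had 37.5 and 24.7 FPKM and SLC7A11, the cystine importer, 18.8 FPKM. The first 6 were among the 120 most abundant protein-coding genes, whereas ASNS was at rank 2153 and SLC7A11 at rank 2678.

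Of 44 collagen genes, 7 were at 1 FPKM or more, led by the basement membrane collagen COL4A2 at 12.1 FPKM ± 0.498 and by COL6A1 and COL6A2 at 11.8 and 11.2 FPKM. Of 31 MAGE genes, 14 had no count and 4 were at 1 FPKM or more, and the highest, MAGEF1, MAGED1 and MAGED2, at 65.96, 31.7 and 27.8 FPKM, belong to the widely expressed part of the family. PRAME had 7.30 FPKM, and 16 of 19 PRAME family genes had no count.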
